A study of Rattus norvegicus with 9 samples.

Results

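The 7 genes studied here were grouped as mesangial identity and contractile genes. They were followed in HBZY-1, an established cell line derived from rat glomerular mesangium. They were chosen by Ensembl identifier and not by a cutoff on their values, though earlier results of these data were known. They are 7 of the 30560 genes in the deposited gene table: Acta2 (ENSRNOG00000058039), Tagln (ENSRNOG00000017628), Des (ENSRNOG00000019810), Vim (ENSRNOG00000018087), Pdgfrb (ENSRNOG00000018461), Pdgfra (ENSRNOG00000002244) and Thy1 (ENSRNOG00000006604). All 7 were present in the table, and 6 reached the mean of 1 TPM that was required for testing. Thy1 did not. TPM is the share of a library's transcripts that a gene takes, corrected for transcript length, so levels of different genes can be set side by side.

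The study holds 9 libraries of total RNA, 3 per group. All 3 groups are the same line: control cells, cells of a model induced with LPS (lipopolysaccharide, a bacterial outer membrane component that provokes inflammatory responses), and cells given the high dose of a water extract of lyophilized powder of Poecilobdella manillensis, a leech. The labels give no concentration or exposure time, do not say what the control cells received, and leave unstated whether LPS was also present in the extract cultures. The study concerns whether the leech powder lessens inflammatory damage to these cells. The replicates are described as biological, and the labels do not say whether they came from cultures grown on different days. Each library correlated better with the libraries of its own group (mean Pearson's r across tested genes from 0.978 to 0.986) than with any library of another group (0.969 at most). Sequencing depth cannot be read from TPM and is unknown, so precision rests on the spread between libraries.

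Mesangial cells are the contractile support cells of the glomerular tuft and resemble vascular smooth muscle cells and pericytes. They express the intermediate filament proteins vimentin and desmin and the receptor PDGFRB, through which PDGF drives their growth and migration. In glomerular injury they take on a myofibroblast-like state in which smooth muscle actin rises, and in the rat the surface glycoprotein Thy-1 is a classical mesangial marker. Transcription of smooth muscle actin, transgelin and other contractile genes is driven by serum response factor (SRF) with its myocardin-family partners, which bind the CArG box, an A/T-rich element flanked by C and G pairs.

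The 7 genes spanned a wide range of levels. Vim was the most abundant, at 954.03 to 3015.66 TPM over the 9 libraries, and ranked between 34 and 155 among all genes of a library. Tagln, Acta2 and Pdgfrb lay between 20.07 and 215.36 TPM, Pdgfra between 23.2 and 31.46 TPM, and Des between 1.62 and 7.88 TPM. Thy1 was close to absent, at 0.27 to 0.6 TPM, and between 80.2% and 85.4% of the genes above 0 TPM in a library stood higher. The labelled cell type was thus accompanied by strong Vim and Pdgfrb, low Des and near-absent Thy1 in every group, control cells included.

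**Figure D1:**
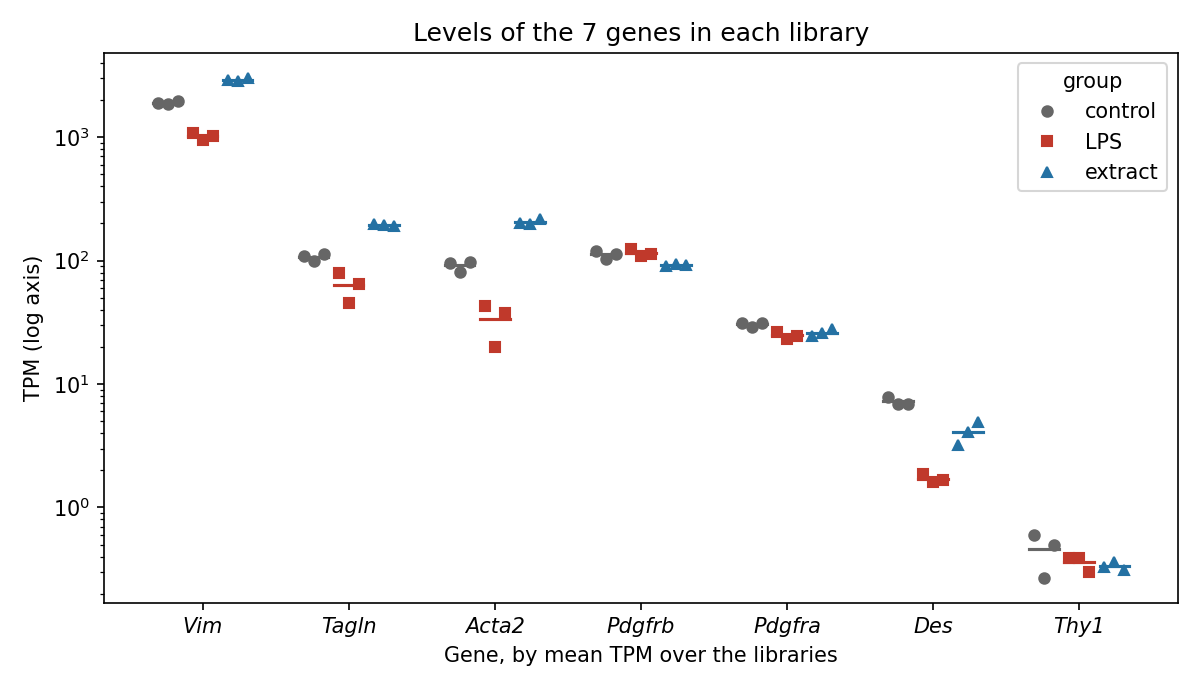
Level of each of the 7 genes in each library, in TPM on a log axis. Points are single libraries (3 per group) and bars are group means. Acta2, Tagln and Vim were lowest in the 3 LPS libraries and highest in the 3 extract libraries. Des was highest in control, Pdgfrb and Pdgfra moved over a narrow range, and the 3 groups overlapped for Thy1.

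The order of the genes between Vim and Pdgfra differed between groups. In control cells Pdgfrb (103.92 to 119.3 TPM) and Tagln (99.43 to 112.62 TPM) overlapped, and Acta2 (80.4 to 98.05 TPM) stood just below. In LPS cells Pdgfrb stood above Tagln, and Tagln above Acta2, whose 20.07 to 42.98 TPM overlapped the 23.2 to 26.57 TPM of Pdgfra. In extract cells Acta2 (197.15 to 215.36 TPM) and Tagln (189.38 to 196.17 TPM) stood next to each other and both lay above Pdgfrb (90.26 to 94.43 TPM).

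Acta2 encodes the smooth muscle alpha-actin of contractile stress fibres. Its level was 95.31, 80.4 and 98.05 TPM in the control libraries, 42.98, 20.07 and 37.35 TPM in the LPS libraries, and 199.96, 197.15 and 215.36 TPM in the extract libraries. No value of one group overlapped another group: LPS was lowest and extract highest. The control mean was 91.3 ± 9.5 TPM, the LPS mean 33.5 ± 11.9 TPM and the extract mean 204.2 ± 9.8 TPM (SD, n = 3). By the ratio of means, Acta2 was 2.73-fold lower in LPS than in control, 6.10-fold higher in extract than in LPS and 2.24-fold higher in extract than in control. On the scale of log2(TPM + 1), LPS minus control was -1.48 ± 0.22 (SE; limma adjusted p = 0.000664). Extract libraries stood 2.64 ± 0.22 above LPS (limma adjusted p = 7.2e-06) and 1.16 ± 0.22 above control (limma adjusted p = 0.00198). Of the 12192 genes tested, 11 had a larger increase than Acta2 in extract versus LPS and 86 a larger decrease in LPS versus control. Bulk RNA does not tell less RNA per cell from fewer cells of a type. The coding sequence of Acta2 is close to that of other actin genes, so the split of shared reads between them adds an uncertainty that TPM does not show.

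Tagln encodes transgelin, an actin-binding protein of smooth muscle and another SRF target. It stood at 109.41, 99.43 and 112.62 TPM in control, 79.86, 45.71 and 64.25 TPM in LPS, and 196.17, 194.02 and 189.38 TPM in extract libraries. As for Acta2, the groups did not overlap and followed the order LPS, control, extract. Tagln was 1.69-fold lower in LPS than in control, with a log2 fold change of -0.78 ± 0.16 (SE; limma adjusted p = 0.00339). It was 3.05-fold higher in extract than in LPS, at 1.63 ± 0.16 (limma adjusted p = 1.7e-05), and 1.80-fold higher than in control, at 0.85 ± 0.16 (limma adjusted p = 0.00155). Extract libraries agreed closely, with a coefficient of variation of 1.80%, against 27.0% in LPS libraries.

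The sequence before the start of Acta2 is shown with those of Vim, which moved in the same directions in all 3 comparisons, and of Pdgfra, which did not. RefSeq promoter windows were matched by symbol for 4 of the 7 genes (Acta2, Des, Vim and Pdgfra), on the RefSeq build GRCr8. The 250 bases before the annotated start are printed in the direction of the gene for Acta2 (chr1:241172504-241172753, minus strand), Vim (chr17:81577011-81577260, plus strand) and Pdgfra (chr14:33408517-33408766, minus strand). Capitals mark matches to the CArG box with 1 C or G in its A/T centre, to the TATA sequences TATAAA and TATATAA, and to CATTCC, the element of the TEAD factors.
Acta2: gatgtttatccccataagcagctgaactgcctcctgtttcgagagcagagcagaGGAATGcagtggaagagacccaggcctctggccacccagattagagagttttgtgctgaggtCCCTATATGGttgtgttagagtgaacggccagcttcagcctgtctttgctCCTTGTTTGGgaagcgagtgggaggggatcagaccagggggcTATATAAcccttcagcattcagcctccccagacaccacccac
Vim: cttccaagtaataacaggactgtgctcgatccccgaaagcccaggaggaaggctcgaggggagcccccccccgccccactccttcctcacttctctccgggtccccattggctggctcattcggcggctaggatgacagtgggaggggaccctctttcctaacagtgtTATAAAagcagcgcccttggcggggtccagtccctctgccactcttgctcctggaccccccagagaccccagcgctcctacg
Pdgfra: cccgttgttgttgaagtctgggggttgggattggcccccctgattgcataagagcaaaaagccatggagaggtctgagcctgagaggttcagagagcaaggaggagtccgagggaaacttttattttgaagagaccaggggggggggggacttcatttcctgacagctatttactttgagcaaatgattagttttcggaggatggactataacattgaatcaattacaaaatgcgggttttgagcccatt

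Both strands of the 250 bases were searched, and no matches overlapped one another. The Acta2 window held 2 CArG boxes with 1 substitution, CCCTATATGG from -134 to -125 and CCTTGTTTGG from -84 to -75 relative to the start. At least 1 such box was found in 6.84% of 33469 rat promoter windows of the same length. The share of windows with more than 1 was not counted. An exact CArG box was found in 1.5% of windows and was absent from the Acta2 window. The Acta2 window also held TATATAA at -42 to -36 (3.42% of windows hold it) and, on the opposite strand, CATTCC at -196 to -191 (12.1%). Vim held TATAAA at -82 to -77 (12.9%). The E-box CANNTG, present in 65.5% of windows, occurred once each in Acta2, Des and Pdgfra and is left in lower case. No other match to these motifs lay in the windows of Vim, Des and Pdgfra. A match describes these letters and shows no binding.

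Des encodes desmin, the muscle intermediate filament protein that marks mesangial cells and pericytes. It stood at 7.88, 6.89 and 6.9 TPM in control, 1.85, 1.62 and 1.67 TPM in LPS, and 3.21, 4.08 and 4.89 TPM in extract libraries. The 3 groups did not overlap, but here control was highest and extract lay between LPS and control. Des was 4.22-fold lower in LPS than in control by the ratio of means, with a log2 fold change of -1.60 ± 0.12 (SE; limma adjusted p = 8.66e-06). Extract libraries stood 0.89 ± 0.12 above LPS (limma adjusted p = 0.000166), while the change from control to extract was -0.71 ± 0.12 (limma adjusted p = 0.000885). At these low levels the size depends on the value added before taking logs: with 5 TPM in place of 1, the 3 changes were -0.86, 0.43 and -0.44, all still called.

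Vim encodes vimentin, the main intermediate filament protein of mesenchymal cells. It stood at 1890.28, 1856.46 and 1951 TPM in control, 1086.95, 954.03 and 1028.38 TPM in LPS, and 2917.23, 2842.87 and 3015.66 TPM in extract libraries. The groups were far apart relative to their spread, with coefficients of variation of 2.52%, 6.51% and 2.96%. Vim was 1.86-fold lower in LPS than in control, with a log2 fold change of -0.89 ± 0.047 (SE; limma adjusted p = 8.22e-07). It was 2.86-fold higher in extract than in LPS, at 1.52 ± 0.047 (limma adjusted p = 2.51e-08), and 1.54-fold higher than in control, at 0.62 ± 0.047 (limma adjusted p = 5.11e-06). Because of its abundance, Vim ranked from 34 to 36 among all genes in the extract libraries, 71 to 72 in control and 139 to 155 in LPS.

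Pdgfrb encodes the PDGF receptor beta, which is used as a marker of mesangial cells and pericytes. It stood at 119.3, 103.92 and 113.43 TPM in control, 123.67, 108.43 and 113.11 TPM in LPS, and 90.26, 94.43 and 92.45 TPM in extract libraries. Control and LPS overlapped, and all extract libraries lay below both. The log2 difference in LPS versus control was 0.04 ± 0.059 (SE), with a 95% interval from -0.098 to 0.17 (limma adjusted p = 0.666). Pdgfrb was lower in extract cells, by -0.31 ± 0.059 against LPS (limma adjusted p = 0.00139) and -0.28 ± 0.059 against control (limma adjusted p = 0.00356), or 1.25-fold and 1.21-fold lower.

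Pdgfra encodes the PDGF receptor alpha, a marker of fibroblasts and other mesenchymal cells. It stood at 30.98, 28.96 and 31.46 TPM in control, 26.57, 23.2 and 24.53 TPM in LPS, and 24.68, 25.84 and 27.75 TPM in extract libraries. LPS and extract overlapped, and both lay below all control libraries. Pdgfra was lower in LPS than in control by -0.29 ± 0.061 on the log2 scale (SE; limma adjusted p = 0.00449). Extract versus LPS gave 0.07 ± 0.061, with a 95% interval from -0.065 to 0.21 (limma adjusted p = 0.336). From control to extract it changed by -0.22 ± 0.061 (limma adjusted p = 0.0146), a call that was lost without control replicate 3 (limma adjusted p = 0.0509) or without extract replicate 1 (limma adjusted p = 0.0562).

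Thy1 stood at 0.6, 0.27 and 0.5 TPM in control, 0.39, 0.39 and 0.3 TPM in LPS, and 0.33, 0.36 and 0.31 TPM in extract libraries. All 3 groups overlapped. Thy1 was below the filter and so has no test among the 12192 genes. Without a filter, no difference passed the threshold (limma adjusted p = 0.484, 0.85 and 0.323 in LPS versus control, extract versus LPS and extract versus control).

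**Figure D2:**
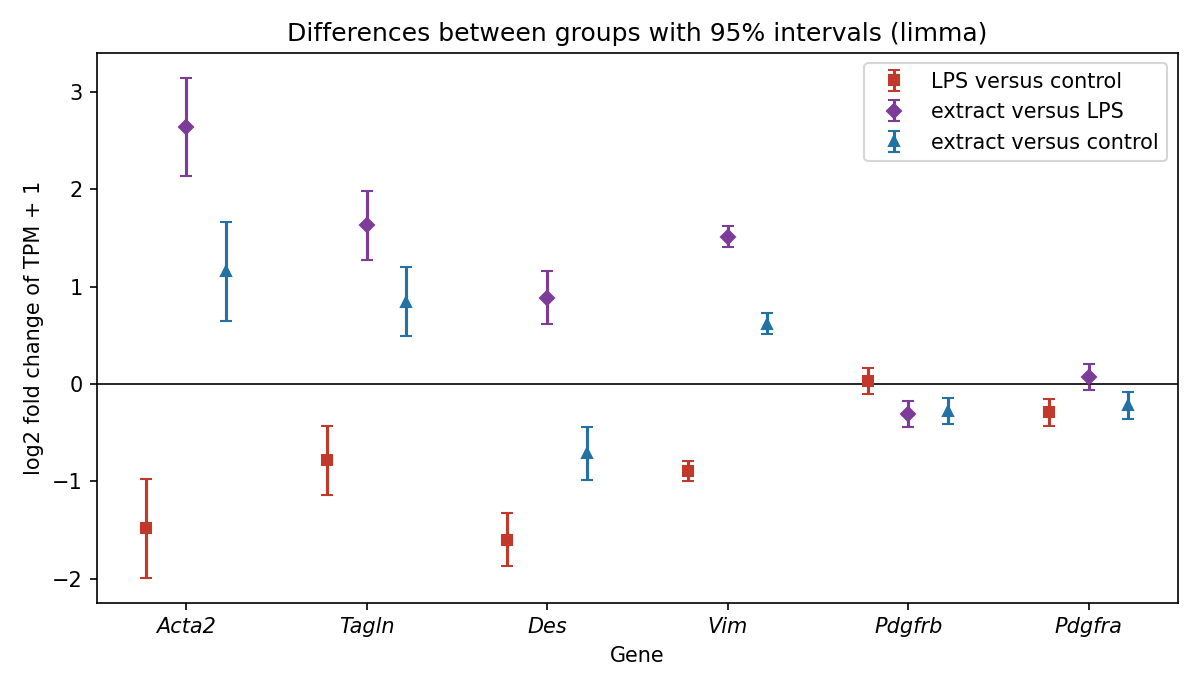
Log2 fold change of TPM + 1 for the 6 tested genes in the 3 comparisons, with 95% intervals from limma fitted over all 9 libraries. Acta2, Tagln and Vim lay below 0 in LPS versus control and above 0 in both comparisons of the extract. Des lay below control in LPS and extract cells, and the PDGF receptors changed little.

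Counted over the set, 5 of the 6 tested genes were lower in LPS than in control and 0 were higher. Over all genes tested, 30.9% were lower and 9.79% higher. On the scale of log2(TPM + 1), Acta2 and Des were both called and at least 2-fold lower, as were 1.24% of all genes tested. The median log2 fold change was -0.84 over the 6 genes and -0.08 over all genes tested.

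In extract versus LPS, 4 of the 6 genes were higher (Acta2, Tagln, Des and Vim) and 1 was lower (Pdgfrb), against 34.4% higher and 25% lower over all genes. On the scale of log2(TPM + 1), Acta2, Tagln and Vim were called and at least 2-fold higher, as were 2.49% of all genes tested. Des was 2.37-fold higher by the ratio of means and under 2-fold on that scale. The median log2 fold change was 1.20 over the 6 genes and 0.04 over all genes. This comparison shares the LPS libraries with LPS versus control, so the opposite signs in the 2 comparisons are not separate observations.

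In extract versus control, Acta2, Tagln and Vim were higher and Des, Pdgfrb and Pdgfra lower. Over all genes, 22.3% were higher and 29.4% lower. On the same scale Acta2 was called and at least 2-fold higher, as were 1.27% of all genes tested. All 6 genes were thus called in this comparison, in which the control libraries are those of LPS versus control and the extract libraries those of extract versus LPS.

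Ratios between genes within a library do not depend on how libraries are scaled, and they show unequal change only. The log2 ratio of Acta2 to Tagln was -0.24 ± 0.062 for control, -0.95 ± 0.21 for LPS and 0.08 ± 0.092 for extract libraries (SD, n = 3). Values of the 3 groups did not overlap, so the balance of these SRF targets was shifted toward Tagln in LPS and toward Acta2 in extract libraries. The ratio of Acta2 to Pdgfrb came to 0.799, 0.774 and 0.864 in control, 0.348, 0.185 and 0.33 in LPS, and 2.22, 2.09 and 2.33 in extract libraries. Acta2 was thus below Pdgfrb in all control and LPS libraries and above it in all extract libraries. The log2 ratio of Tagln to Pdgfrb followed the same order, with -0.07 ± 0.057, -0.90 ± 0.32 and 1.06 ± 0.048 in control, LPS and extract.

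Against Vim, the log2 ratio of Acta2 was -4.38 ± 0.13 for control, -5.00 ± 0.49 for LPS and -3.84 ± 0.030 for extract libraries. The groups did not overlap, so Acta2 fell and rose by more than Vim. For Tagln against Vim, the values were -4.15 ± 0.064, -4.05 ± 0.31 and -3.92 ± 0.064. LPS overlapped both other groups, so unequal change of Tagln and Vim in LPS libraries was not seen beyond the spread. The extract libraries (-3.99 to -3.87) all lay above the control libraries (-4.22 to -4.11), so Tagln was higher relative to Vim in extract than in control. Des against Vim stood at -8.04 ± 0.12, -9.22 ± 0.038 and -9.51 ± 0.29, below control in all LPS and extract libraries. Extract libraries (-9.828 to -9.268) lay below LPS libraries (-9.266 to -9.199), but the ranges all but touched. Pdgfrb against Vim was -4.08 ± 0.088 (control), -3.15 ± 0.028 (LPS) and -4.98 ± 0.063 (extract), and Pdgfra against Vim -5.96 ± 0.036, -5.37 ± 0.019 and -6.81 ± 0.065. Relative to Vim, both receptors were thus highest in the LPS and lowest in the extract libraries, with no overlap. The log2 ratio of Pdgfrb to Pdgfra averaged 1.88 ± 0.057 for control, 2.22 ± 0.010 for LPS and 1.83 ± 0.077 for extract libraries, so the receptors shifted toward Pdgfrb in all LPS libraries.

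**Figure D3:**
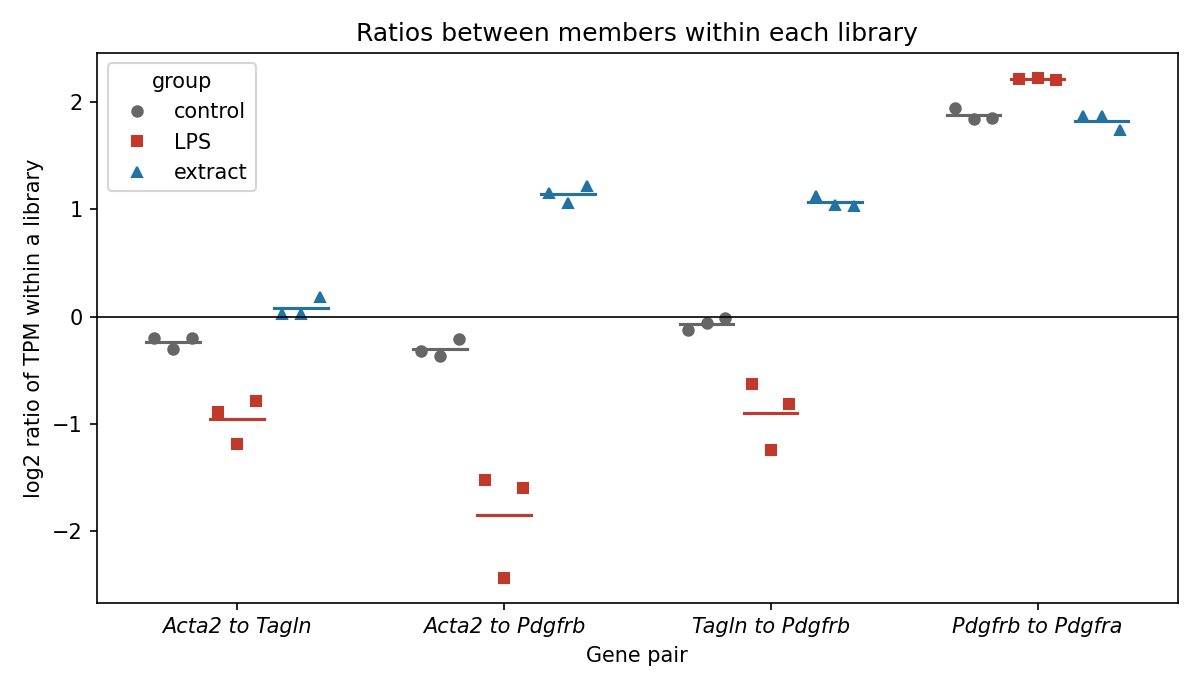
Log2 ratio of TPM between pairs of the genes within each library; points are single libraries, bars are group means, and 0 means equal TPM. The ratios of Acta2 and Tagln to Pdgfrb lie below 0 in all control and LPS libraries and above 1 in all extract libraries.

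The LPS libraries differed among themselves more than the other groups did for Acta2 and Tagln. The coefficient of variation of Acta2 was 35.7% among LPS, 10.4% among control and 4.80% among extract libraries, against medians over all tested genes of 5.80%, 5.17% and 4.67%. Des differed most among the extract libraries, with 20.7%, against 7.06% among LPS and 7.87% among control libraries. In LPS, 96.9% of tested genes varied less than Acta2 and 95.3% less than Tagln. LPS replicate 2 was the lowest LPS library for all 6 tested genes and LPS replicate 1 the highest. Over all tested genes, LPS replicate 2 was lowest for 46.7% and LPS replicate 1 highest for 34.6%. After rescaling by the median of ratios, LPS replicate 2 was lowest for 5 of the 6 genes and for 32.0% of all genes. Without LPS replicate 2, the log2 fold change in LPS versus control was -1.16 for Acta2 (limma adjusted p = 4.34e-05), -0.57 for Tagln (limma adjusted p = 0.00139) and -0.84 for Vim (limma adjusted p = 2.14e-06).

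Transcripts of the 7 genes were read from the transcript table, in which 12 transcripts above 0 TPM summed to the genes' TPM. Acta2 (ENSRNOT00000083468), Vim (ENSRNOT00000024430) and Pdgfra (ENSRNOT00000003077) each had 1 transcript above 0, so their gene values are those of that transcript. Tagln was shared between 2 transcripts. The mean of ENSRNOT00000024030 was 60.0 TPM for control, 36.2 for LPS and 111.3 for extract libraries, and ENSRNOT00000081737 at 47.1, 27.1 and 81.9 TPM. The first took 55.9% ± 2.3 of Tagln TPM among control, 57.5% ± 4.0 among LPS and 57.6% ± 3.0 among extract libraries (SD, n = 3), with overlapping ranges. Both changed alike: -0.74 ± 0.16 and -0.82 ± 0.19 (SE) in LPS versus control on the log2 scale (limma adjusted p = 0.0123 and 0.0138). From LPS to extract they rose by 1.62 ± 0.16 and 1.61 ± 0.19 (limma adjusted p = 8.69e-05 and 2e-04).

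Pdgfrb was divided mainly between ENSRNOT00000068535, with 55.9% ± 0.88, 54.0% ± 1.7 and 57.6% ± 2.4 of the gene in control, LPS and extract cells, and ENSRNOT00000086033, with 43.8% ± 0.80, 44.0% ± 1.7 and 41.5% ± 2.3. Both fell from LPS to extract, with log2 fold changes of -0.22 ± 0.061 and -0.39 ± 0.081 (SE; limma adjusted p = 0.0206 and 0.00495). The call of ENSRNOT00000068535 was lost without LPS replicate 1, extract replicate 1 or extract replicate 3 (limma adjusted p = 0.0677, 0.0718 and 0.0633). Of the 9 transcripts tested, 6 were lower and 0 higher in LPS versus control, where 17% of 19383 transcripts were lower and 5.96% higher. In extract versus LPS 5 were higher and 2 lower, against 22.9% and 16.2% of all transcripts, and in extract versus control 4 were higher and 4 lower, against 14% and 18%. The 4 lower transcripts were 2 without control replicate 1, control replicate 3 or extract replicate 1, where ENSRNOT00000068535 of Pdgfrb and ENSRNOT00000003077 of Pdgfra lost their calls (limma adjusted p from 0.0527 to 0.11).

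**Figure D4:**
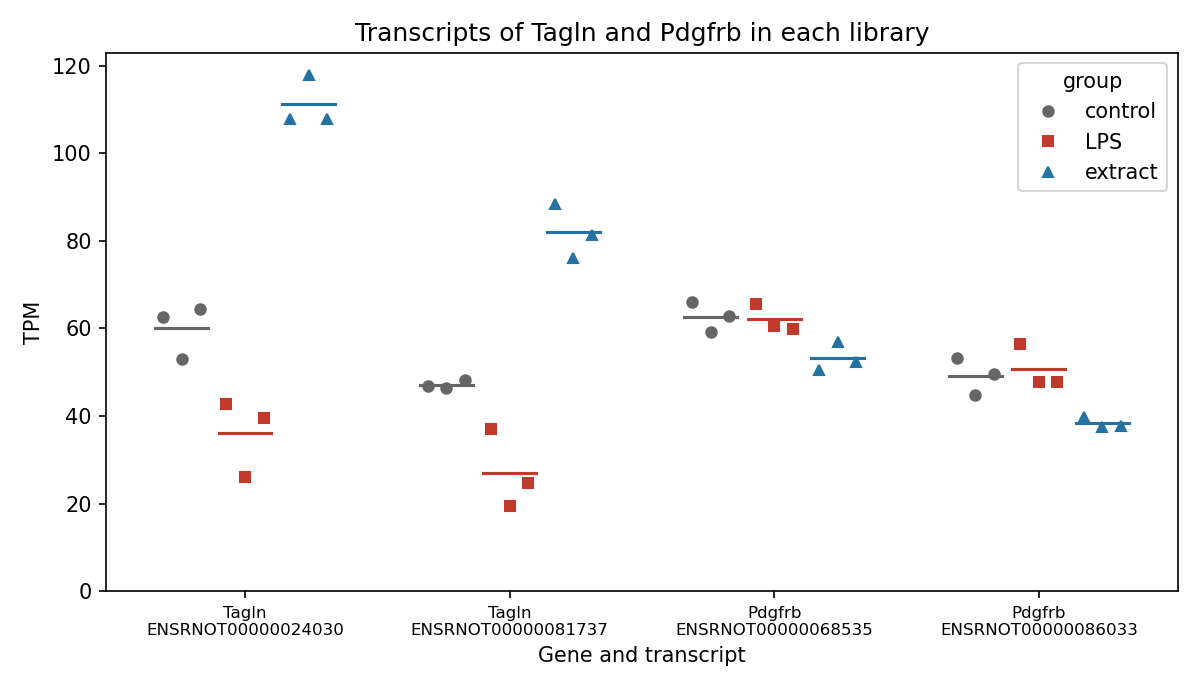
TPM of the 2 main transcripts each of Tagln and Pdgfrb in every library; points are libraries and bars are group means. Both Tagln transcripts were lowest in LPS and highest in extract libraries, and both Pdgfrb transcripts were lowest in extract libraries.

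Across the 9 libraries, Tagln and Vim had the profiles most like that of Acta2 within the set, with Pearson's r of 0.993 and 0.984 on the log2 scale, followed by Des (0.60), Pdgfra (0.35) and Pdgfrb (-0.69). These libraries form 3 groups, so the values describe the order of the groups more than variation within them. Tagln ranked 9 and Vim 85 among all tested genes in likeness to Acta2. The closest genes outside the set were ENSRNOG00000019725 (r = 0.996) and ENSRNOG00000020658 (r = 0.994), for which the files give no names. Their ranges were much narrower than that of Acta2. ENSRNOG00000019725 had means of 99.6 ± 0.75 TPM (control), 88.1 ± 4.3 TPM (LPS) and 108.4 ± 0.91 TPM (extract), and ENSRNOG00000020658 at 16.3 ± 0.67, 13.2 ± 1.1 and 18.9 ± 0.10 TPM (SD, n = 3).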

How the data were processed

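RNA abundance in 9 HBZY-1 libraries was deposited by the authors as TPM, rounded to 2 decimals, in a table of 30560 genes and a table of 54991 transcripts. Tools listed in the submitters' processing notes, with no role or setting, are fastp, RSEM 1.3.3 and HISAT2 2.1.0. The genome build, the annotation and the strandedness were not given in the sources used here. Column names were matched to the first word of the titles.

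Names of the 7 genes come from the definition of the set. The files pair no other identifier with a name, and 0 identifiers matched the GRCr8 reference table, so lists of other contractile genes, regulators and markers of other cell types were not analysed here. All 7 genes are named whatever their values, with the 2 genes most like Acta2. The genes, lists and tests were chosen with earlier results of these data known.

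Features with a mean of at least 1 TPM were fitted as log2(TPM + 1), which understates changes of low genes. The fit used limma 3.58.1 in R 4.3.3 with a mean per group over all 9 libraries, a mean-variance trend and 6 residual degrees of freedom. Tests were two-sided and adjusted by the Benjamini-Hochberg method over all features tested; adjusted p below 0.05 was called. The p-values measure only the spread between libraries of a group. The procedure was tested on simulated data with normal noise, drawn independently and with equal spread in all groups. That test does not cover groups of unequal spread, as seen for Acta2 in LPS libraries. A run of consecutive transcripts was tied to a gene where it summed to the gene's TPM in every library, within 0.006 TPM per value; apart from transcripts at 0, 1 run fitted each gene. Ratios to Vim and of Acta2 to Tagln were planned; the other ratios, the comparison of the LPS libraries and the promoter search were added after the values were seen. The alternatives tried were no filter or one of 5 TPM, a pseudocount of 0.1 or 5, median-of-ratios or quantile scaling, a replicate block, only the 2 groups compared, no trend, and leaving out each library.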

Additional observations from a re-analysis of the deposited data

How the results depend on the processing

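The counts of genes called (5, 5 and 6 of the 6 tested in LPS versus control, extract versus LPS and extract versus control) and of transcripts called (6, 7 and 8 of 9) stayed within 1.5 times in total under every alternative run. Counted by direction, transcripts lower in extract versus LPS went from 2 to 1 without LPS replicate 1, extract replicate 1 or extract replicate 3. Those lower in extract versus control went from 4 to 2 without control replicate 1, control replicate 3 or extract replicate 1, and to 3 without extract replicate 2 or 3 or with median-of-ratios scaling. The Pdgfra transcript also lost its call in LPS versus control without control replicate 3 and with that scaling. Every gene-level fold change called in the set kept its direction and its call under all of them, except Pdgfra in extract versus control without control replicate 3 (-0.19) or without extract replicate 1 (-0.18). Des has no value with a filter of 5 TPM. Scaling shifted the median of all genes by 0.086 at most on the log2 scale. Over the alternatives, Acta2 ranged from -1.69 to -1.16 in LPS versus control, 2.32 to 2.85 in extract versus LPS and 1.07 to 1.21 in extract versus control. The uncalled Pdgfrb difference in LPS versus control ranged from -0.018 to 0.13. With the replicate block the calls were 5, 5 and 6 genes and 6, 7 and 8 transcripts, and it changed no call of a gene. Deviations of same-numbered libraries correlated from -0.055 to 0.095, and of differently numbered libraries of different groups from -0.11 to 0.089, so the numbers were not taken to pair the libraries. Without read depth, precision at the levels of Des and Thy1 is unknown.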

Other observations

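Minor transcripts were seen for 3 of the genes. The third Pdgfrb transcript, ENSRNOT00000078764, was listed at 0 TPM in control replicates 1 and 2, LPS replicate 2 and extract replicates 1 and 2, and at 0.99, 1.55, 5.34 and 2.53 TPM in control replicate 3, LPS replicates 1 and 3 and extract replicate 3. Its groups overlapped and no comparison passed the threshold (limma adjusted p from 0.372 to 0.81). A second Des transcript, ENSRNOT00000117593, stood at 0.19 TPM or less in every library. It took 3.70% to 10.3% of Des in LPS libraries, 0% to 1.74% in control and 0% to 2.86% in extract libraries, at levels where its depth is unknown. A second Thy1 transcript, ENSRNOT00000095277, reached 0.05 TPM at most.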
